A study of Homo sapiens with 76 samples.

Results

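The genes described here encode the core proteins of the spliceosome's small nuclear ribonucleoproteins (snRNPs) and of the splicing factors SF3A and SF3B, as measured in 76 individually captured cells of the human line HEK293, which derives from embryonic kidney. They were taken by name: every gene row of the count table whose symbol starts with SNRP, with LSM and a digit, or with SF3A or SF3B and a digit, leaving out symbols that end in P and a number, which name pseudogenes. This gave 32 of the table's 17513 gene rows. All cells were grown in DMEM with glutamine and fetal calf serum, captured in a Fluidigm C1 chip, and read at the 5' ends of polyadenylated RNA with unique molecular identifiers (UMIs), tags that let each captured molecule be counted once. The labels give 1 line, 1 run, and neither a treatment nor a second group, and name no separate cultures, so the cells form 1 sample. There is therefore no test between groups, and each SD describes the spread over these cells.

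Splicing removes introns from pre-mRNA. Each major snRNP consists of a small nuclear RNA and proteins. The RNAs of U1, U2, U4 and U5 carry a ring of Sm proteins, and U6 RNA carries a related ring of LSM proteins. SF3A and SF3B are parts of the U2 snRNP, which recognises the branch point of the intron. Not every gene taken by name belongs to the spliceosome. LSM1 joins LSM proteins in a cytoplasmic ring for mRNA decay, LSM10 and LSM11 belong to the U7 snRNP, which cuts histone pre-mRNA, and LSM14A is found in cytoplasmic bodies of stored mRNA. The Sm gene SNRPN and the U6 ring gene LSM8 were on the lists but were not analysed here.

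The cells held 7305 to 43392 endogenous UMIs (median 20966) and 1390 to 3132 UMIs of spike-in RNA added in equal amount. As a check of the label, of 6 genes listed for this line VIM and UCHL1 were each seen in 70 cells, NEFM in 49, KRT18 in 45, NEFL in 26 and KRT8 in 19, while the analysed blood, liver and fibroblast or muscle markers gave 6, 1 and 16 UMIs in all (the liver gene FGG had none; by the limit of 3 counts, up to 3.95% of cells could still show its UMIs).

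Together the 32 genes took 1.06% ± 0.137 (SD, n = 76 cells) of a cell's UMIs, with a lowest share of 0.705%, a median of 1.08% and a highest of 1.44%. In UMIs this was 85 in the lowest cell, 221 in the median and 464 in the highest. Scaled by the 20000 spike-in molecules stated per cell, a cell held 837 to 4237 of these mRNA molecules (median 1974), if cellular and spike-in RNA were captured alike. The Sm ring genes gave 53.1% of the UMIs of the 32 genes, and the U6 ring genes analysed here 17.1%. The SF3B genes taken by name gave 13.6%, the U1 proteins SNRPA and SNRPC 6.43%, the U2 proteins SNRPA1 and SNRPB2 4.69% and SF3A 1.96%. At least 38 cells held a UMI for 30 of the 32 genes, against 16.7% of all gene rows, and every cell did for 9 of them, against 1.78%. LSM11 was seen in 9 cells (11.8%, exact Clopper-Pearson 95% interval 5.56% to 21.3%) and LSM14B in 6 (7.89%, 2.95% to 16.4%). Intervals cover counting error only.

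**Figure D1:**
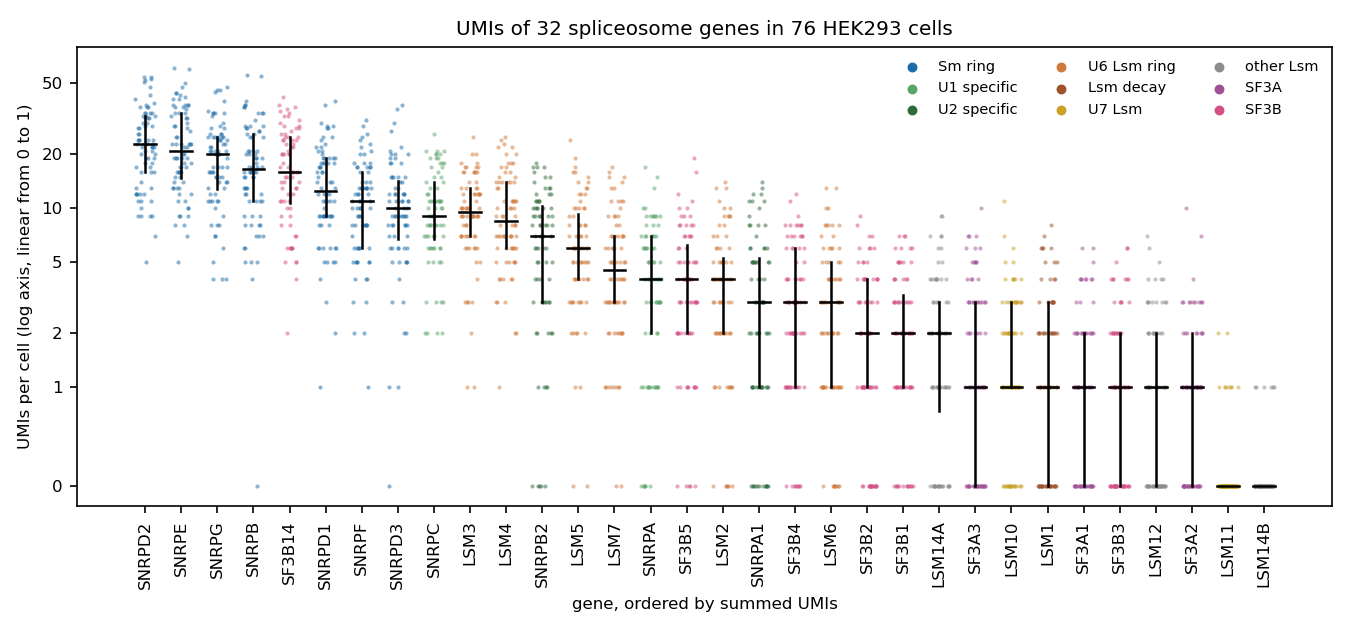
UMIs per cell (log axis, linear from 0 to 1) for the 32 genes, ordered by summed UMIs and coloured by role, with 1 point per cell (points at whole counts, spread sideways). Black lines give the median and the quartiles; medians run from 23 UMIs for SNRPD2 to 0 for LSM11 and LSM14B.

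The Sm ring holds 1 copy of each of its proteins, yet its mRNAs were not equally abundant. SNRPD2 gave 5 UMIs in the lowest cell, 23 in the median and 54 in the highest (24.9 ± 12.1). SNRPE gave 5, 21 and 61 (24.3 ± 12.8), and SNRPG 4, 20 and 48 (20.2 ± 10.4). These were the most abundant of the 32 genes, and no cell lacked any of them. SNRPB, which encodes SmB and SmB', gave 0, 16.5 and 56 UMIs (19 ± 11.3), and SNRPD1 gave 1, 12.5 and 40 (14.4 ± 8.14). SNRPF gave 1, 11 and 31 (11.7 ± 6.58) and SNRPD3 gave 0, 10 and 38 (11.3 ± 7.25). Summed over cells, SNRPD2 (1889 UMIs, exact Poisson 95% interval 1805 to 1976) was 2.19 times SNRPD3 (861 UMIs, 804 to 920). The ranges of single cells overlapped for every pair in the ring. By their summed counts the ring fell into SNRPD2 with SNRPE, then SNRPG with SNRPB, then SNRPD1, then SNRPF with SNRPD3: the intervals overlapped within each of these sets and not between neighbouring sets. SNRPE exceeded SNRPG in 47 cells and was lower in 24. SNRPD2 exceeded SNRPE in only 33 cells and was lower in 38.

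A 5' tag counts a molecule once, so these levels are not divided by transcript length. SNRPB was at 0 in a single cell, which was the cell of fewest UMIs (7305, 6.24 UMIs expected from its total). SNRPD3 was at 0 in another cell, of 13213 UMIs, where 6.72 were expected.

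The place of SNRPG in this order depends on rows that carry the names of its processed pseudogenes, copies of the mRNA inserted elsewhere in the genome. SNRPGP2 gave 313 UMIs in 69 cells, SNRPGP10 254 in 71 cells, SNRPGP15 46 in 31 cells and SNRPGP9 1. Together these 614 UMIs were 28.5% of the sum of SNRPG and its pseudogene rows. The rows of 3 SNRPE pseudogenes gave 130 UMIs, 6.59% of their sum with SNRPE. With the pseudogene rows added to their parent genes, SNRPG stood at 28.3 ± 15.1 UMIs per cell (2151 in all) and ranked 1 of the 32 genes instead of 3, ahead of SNRPE at 25.96 ± 13.6 (1973 in all). How the authors assigned tags that match both a gene and its pseudogenes is not given in the sources used here, and whether the pseudogenes are transcribed was not tested.

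The coding sequence of SNRPG (principal transcript, stop codon included) and the annotated pseudogenes are shown because they are nearly the same. They are GENCODE 29 sequences, read on the transcribed strand and given 5′ to 3′, with the bases that differ from SNRPG in capitals.
SNRPG: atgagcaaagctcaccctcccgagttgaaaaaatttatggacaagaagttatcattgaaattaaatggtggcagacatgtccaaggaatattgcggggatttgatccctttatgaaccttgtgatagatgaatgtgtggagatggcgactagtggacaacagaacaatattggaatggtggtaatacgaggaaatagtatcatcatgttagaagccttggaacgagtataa
SNRPGP2: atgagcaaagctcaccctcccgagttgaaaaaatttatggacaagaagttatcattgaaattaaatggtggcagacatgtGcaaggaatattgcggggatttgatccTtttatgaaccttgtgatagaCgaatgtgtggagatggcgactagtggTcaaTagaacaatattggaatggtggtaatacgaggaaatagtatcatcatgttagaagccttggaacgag
SNRPGP10: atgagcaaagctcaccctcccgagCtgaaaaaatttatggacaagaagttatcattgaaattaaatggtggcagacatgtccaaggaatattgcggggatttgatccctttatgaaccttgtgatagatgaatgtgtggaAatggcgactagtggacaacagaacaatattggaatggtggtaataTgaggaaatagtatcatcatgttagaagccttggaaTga
SNRPGP15: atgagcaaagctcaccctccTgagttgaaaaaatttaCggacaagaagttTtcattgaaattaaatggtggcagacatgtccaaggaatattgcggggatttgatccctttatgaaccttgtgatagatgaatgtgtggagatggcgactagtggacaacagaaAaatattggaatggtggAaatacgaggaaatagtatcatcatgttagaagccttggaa

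With positions counted from 1 at the first base of the SNRPG start codon, SNRPGP2 differed at 5 of 226 aligned bases (C81G, C108T, T129C, A156T and C160T). SNRPGP10 differed at 4 of 225 (T25C, G141A, C187T and C223T) and SNRPGP15 at 5 of 222 (C21T, T38C, A51T, C165A and T182A). The most abundant pseudogene row, SNRPGP2, thus matches SNRPG over its annotated sequence up to the change at position 81. Across cells the share of SNRPG correlated with that of SNRPGP10 (Spearman rho = 0.492, 76 cells) and of SNRPGP2 (0.448), and less with that of SNRPGP15 (0.0308). The pseudogenes of SNRPE were as close to it: SNRPEP4 matched 275 of 279 bases of its coding sequence, stop codon included, and SNRPEP2 273 of 279.

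**Figure D2:**
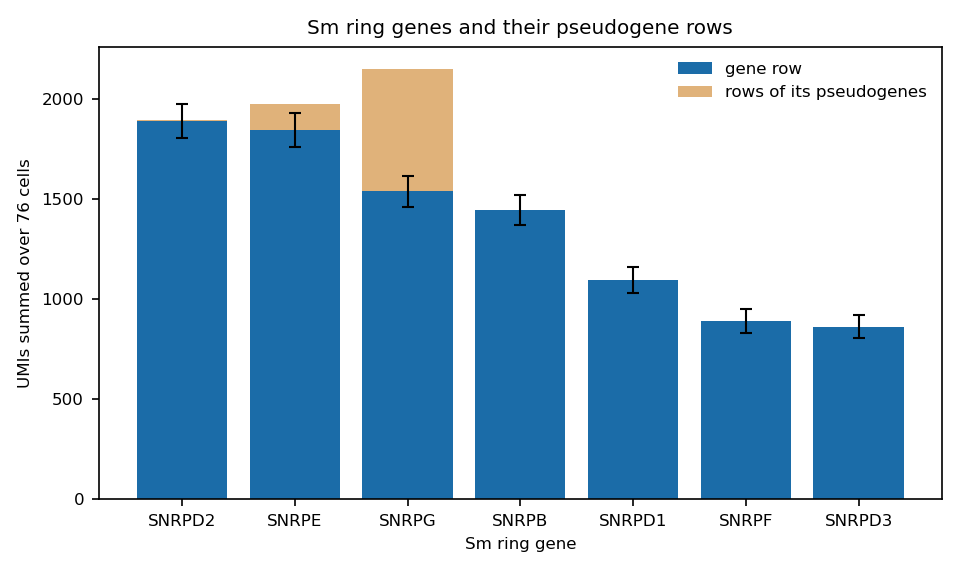
UMIs summed over 76 cells for the 7 Sm ring genes (blue, with exact Poisson 95% intervals) and the rows of their pseudogenes (tan, stacked on top). SNRPG carries 614 pseudogene UMIs and SNRPE 130; with them SNRPG, not SNRPD2, is the tallest bar.

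The U1 proteins in the set and the U2 pair follow. SNRPC, the U1 protein that helps to recognise the 5' splice site, gave 2 UMIs in the lowest cell, 9 in the median and 26 in the highest (10.5 ± 5.59). SNRPA, which binds a stem-loop of U1 RNA, gave 0, 4 and 17 (4.72 ± 3.57). SNRPC was seen in every cell and SNRPA in 70. Of the U2 pair that bind a stem-loop of U2 RNA together, SNRPB2 gave 0, 7 and 18 (7.28 ± 4.79) and SNRPA1 0, 3 and 14 (3.84 ± 3.61). Although the proteins act as a pair, the shares of SNRPB2 and SNRPA1 had a rho of -0.131 over the 76 cells, a weak value in counts this low.

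The 6 U6 ring genes analysed here covered a 3.00-fold range. LSM3 gave 1, 9.5 and 25 UMIs (lowest, median and highest cell, 10.2 ± 4.84) and LSM4 gave 1, 8.5 and 25 (10.1 ± 5.79). These 2 genes were seen in every cell and differed by less than counting error. LSM5 followed at 7.03 ± 4.63, LSM7 at 5.55 ± 4.05, LSM2 at 4.26 ± 3.23 and LSM6 at 3.41 ± 2.99, each at 0 in 2 to 8 cells. The LSM genes outside the spliceosome were rarer: LSM14A gave 2.18 ± 2.18 UMIs, LSM10 1.91 ± 1.88, LSM1 1.84 ± 1.97 and LSM12 1.29 ± 1.56. LSM11, the partner of LSM10 in the U7 ring, gave 11 UMIs in all cells against 145 for LSM10, and LSM14B gave 6 against 166 for LSM14A.

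The SF3B genes differed widely in level. SF3B14, the older symbol of SF3B6, encodes a small protein at the branch point. It gave 2, 16 and 42 UMIs (18.0 ± 9.69) and had a UMI in every cell, as an SF3 gene among the Sm genes. SF3B5 gave 0, 4 and 19 (4.51 ± 3.59) and SF3B4, an RNA-binding subunit, 0, 3 and 12 (3.55 ± 2.83). SF3B2 gave 2.41 ± 2.19. SF3B1, the large scaffold that grips the branch point and a gene often mutated in blood cancers, gave 0, 2 and 7 (2.38 ± 1.95) and was seen in 63 cells. SF3B3 gave 0, 1 and 6 (1.34 ± 1.51), so SF3B14 had 13.4 times its summed UMIs. The SF3A genes were all low: SF3A3 gave 2.04 ± 2.25, SF3A1 1.39 ± 1.51 and SF3A2 1.21 ± 1.61 UMIs, in 50, 50 and 48 cells. Over the whole order of 32 genes, 24 of 31 neighbours had overlapping counting intervals. The gaps lay below SNRPE, SF3B14, SNRPD1, LSM4, LSM5, LSM6 and SF3A2.

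Abundant members were short genes. The 22 genes with a longest annotated coding sequence under 1000 bases (GENCODE 29) had a median of 8.68 UMIs per cell (1.29 to 24.9), and the 10 longer genes a median of 1.72 (0.0789 to 3.55). Over the 32 genes the mean UMIs had a Spearman rho of -0.570 with coding length. Without the stop codon, the longest coding sequence spans 276 bases in SNRPE, 288 in SNRPG (in another transcript than the one shown), 375 in SF3B14 and 3912 in SF3B1. The method needs reverse transcription to reach the 5' end, and cell content and recovery by length cannot be told apart here.

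The promoters of 27 of the 32 genes were in the RefSeq table (GRCh38.p14), with 35 annotated starts. SNRPB, SF3B6 (SF3B14 in the counts) and SNRPF are shown as the 3 genes with a searched motif in the last 100 bases before the start, among the 5 most abundant genes that have 1 annotated start. Motifs are in capitals, and each line is read on the gene's strand.
SNRPB (chr20:2470790-2470889, minus strand): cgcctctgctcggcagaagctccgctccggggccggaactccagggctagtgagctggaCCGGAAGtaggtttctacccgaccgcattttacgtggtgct
SF3B6 (chr2:24076327-24076426, minus strand): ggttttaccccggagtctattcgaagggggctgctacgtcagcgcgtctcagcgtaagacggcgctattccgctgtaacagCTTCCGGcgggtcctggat
SNRPF (chr12:95858852-95858951, plus strand): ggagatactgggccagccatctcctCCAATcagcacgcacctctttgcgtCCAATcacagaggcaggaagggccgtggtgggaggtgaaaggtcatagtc

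The letters CCGGAAG, the core bound by ETS family factors, or their reverse complement CTTCCGG, stood within 250 bases before 16 of the 35 starts (45.7%), in 14 genes. They stood before 8.52% of all 35116 promoters and before 19.2% of the 2937 starts of other genes with a mean of at least 1 UMI in these cells. The 14 genes were SNRPB, SNRPB2, SNRPA1, SNRPC, SNRPD2, SNRPE, SNRPG, LSM5, SF3A1, SF3A2, SF3A3, SF3B2, SF3B4 and SF3B6. The CCAAT box (CCAAT or ATTGG) stood before 9 of the 35 starts (25.7%, 32.01% of all promoters and 37.3% for the other genes), SNRPF among them. TATAAA stood before 1 start, that of SNRPC (2.86%, against 10.7% of all promoters and 5.79% for the other genes). The NRF1 motif stood before 1 start, that of LSM7 (2.86%, against 1.03% and 2.25%), and the YY1 motif before 0 (0.248% and 0.306%). All were searched on both strands, and starts of 1 gene share sequence. These matches are letters in a window, and binding was not measured.

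The summed UMIs of the 32 genes followed a cell's total closely. Across cells they correlated with endogenous UMIs at a Spearman rho of 0.939 (Pearson r = 0.958, and 0.954 without the 2 cells farthest from the median total). The same rho was not computed for other sets of genes. On log2 scales the slope was 1.00, both for UMIs and for UMIs per spike-in UMI. As a share of a cell's UMIs the genes showed little relation to the total (rho = -0.0458, r = -0.00506), and the sign of that small value turned to 0.0901 without the 5 cells under 10483 UMIs. The share ran over a coefficient of variation of 12.8%, against 10.9% for ribosomal protein genes and 20.5% for hnRNP and SR splicing regulators, lists of unlike abundance and so of unlike counting noise. It was not fixed: the summed UMIs had a Pearson dispersion of 3.56, and those of the Sm ring 3.11. This measure is 1 where only counting noise acts on a fixed share. For the sum of the hnRNP and SR regulators it was 7.68 and for that of ribosomal protein genes 70.0. The lowest share, 0.705%, belonged to a cell of 16598 UMIs with 117 UMIs from these genes, where the Sm ring took 0.265%. The highest, 1.44%, belonged to a cell of 20828 UMIs, where the Sm ring took 0.807%. The share of the 32 genes had a rho of 0.244 with the share of mitochondrial genes and -0.103 with that of ribosomal protein genes. The latter turned to 0.140 when the share was taken of totals free of both kinds of gene. All cells share 1 run, and shares of 1 total constrain each other.

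**Figure D3:**
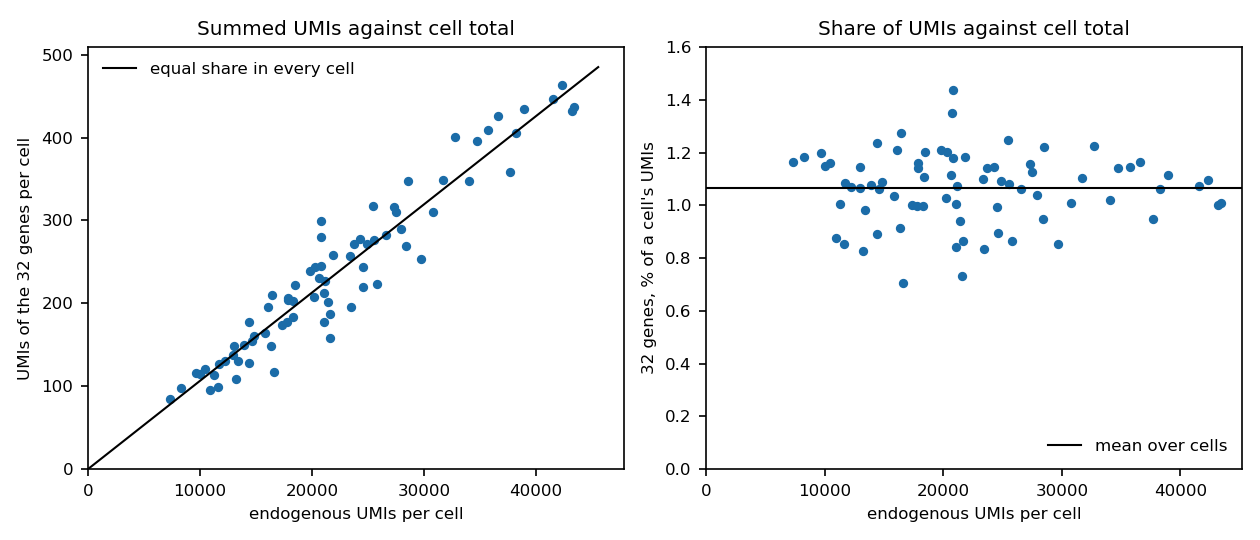
Left, summed UMIs of the 32 genes against endogenous UMIs, 1 point per cell; the line is an equal share in every cell. Right, the same genes as a percent of a cell's UMIs; the line is the mean of 1.06%, and the cells lie between 0.705% and 1.44%.

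Single members spread over cells about as much as other genes of these cells. The Pearson dispersion, which is 1 where only counting noise acts on a fixed share of each cell's total, ran from 1.25 to 3.04 over the 30 genes with a mean of at least 1 UMI (median 1.91). It had a median of 1.76 over the other 2780 genes and of 1.53 over 36 spike-ins, added to each cell in the same amount. Of the 30 genes, 7 lay above the highest spike-in (2.20), where 21.6% of all genes tested did, so their share is near the background. SNRPE had the highest value (3.04), followed by SF3B14 (2.48), SF3A2 (2.42), SNRPA1 (2.38), SF3B5 (2.31), SNRPB (2.25) and LSM5 (2.23). Just below the limit were SNRPB2 (2.18) and SNRPD3 (2.14). SNRPE and SF3B14 stayed above it without the single cell that adds most to each (2.92 and 2.399), a check chosen after seeing the data. The other 5 fell under it: SF3A2 went to 1.63, SF3B5 to 1.71, LSM5 to 1.96, SNRPB to 2.03 and SNRPA1 to 2.10. SF3B5, for instance, had 19 UMIs in a cell where 4.21 were expected. SF3B1 had the lowest dispersion (1.25).

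Extra variance beyond counting, as a squared coefficient of variation, had a median of 0.261 in the 17 members with a mean of 1 to 6 UMIs, near the 0.254 of 18 spike-ins of that range and below the 0.321 of 2268 other genes. In the 13 members with a mean of 6 to 30 UMIs it was 0.0822, above the 0.0333 of 9 spike-ins and again below the 0.108 of 393 other genes. Without the 5 cells under 10483 UMIs the highest spike-in stood at 2.30, and 4 of the 30 genes lay above it (17.9% of all genes tested). With spike-in totals as the scale 16 lay above 2.20 (46.8%). With pseudogene rows added to their parents 8 did (21.6%): SNRPG went from 1.95 to 3.02 and SNRPE from 3.04 to 3.28, an alternative added after seeing the data.

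**Figure D4:**
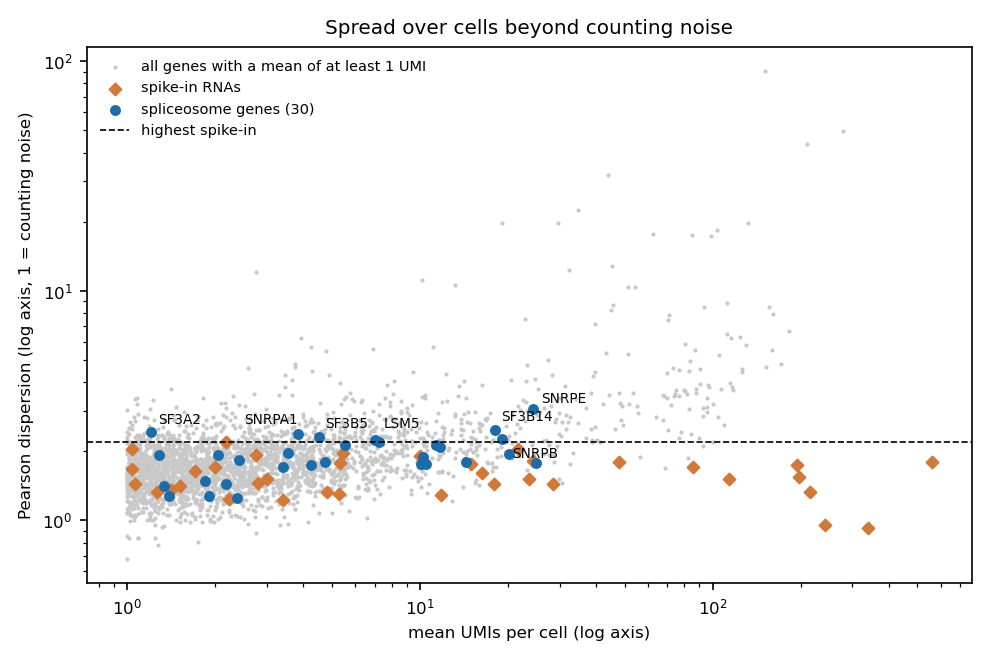
Pearson dispersion (log axis) against mean UMIs per cell (log axis) for 30 members (blue), 36 spike-in RNAs (orange) and all 2810 genes tested (grey). The legend calls the members spliceosome genes, although they include LSM genes outside the spliceosome. The dashed line is the highest spike-in, 2.20; the 7 named genes lie above it, SNRPE highest at 3.04.

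Shares of members of the same particle were weakly related over cells, as were those of most genes. Over the 435 pairs of the 30 genes the median Spearman rho of shares was 0.0115, from -0.369 to 0.456, and over all 3946645 pairs of genes tested it was 0.0144. Within the Sm ring the 21 pairs had a median of 0.0587, within the U6 ring 15 pairs had -0.0185, and within SF3B 15 pairs had 0.0386. The highest pair was SF3B14 with SNRPG (0.456), then SNRPB2 with SNRPG (0.397) and SF3B4 with SNRPG (0.371). The lowest was LSM1 with LSM4 (-0.369). A rho over 0.3 was found in 11 pairs (2.53%, against 1.16% of all pairs), of which 4 held SNRPG and 4 held SF3B14, and a rho under -0.3 in 1 (0.230%, against 0.717%). Over sums of several genes, the Sm ring share had a rho of 0.243 with the SF3B share and of 0.221 with the U6 ring share. With spike-in totals as the scale, which leaves differences in RNA content between cells in each value, the median of pairs was 0.262 and that of all genes 0.177.

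**Figure D5:**
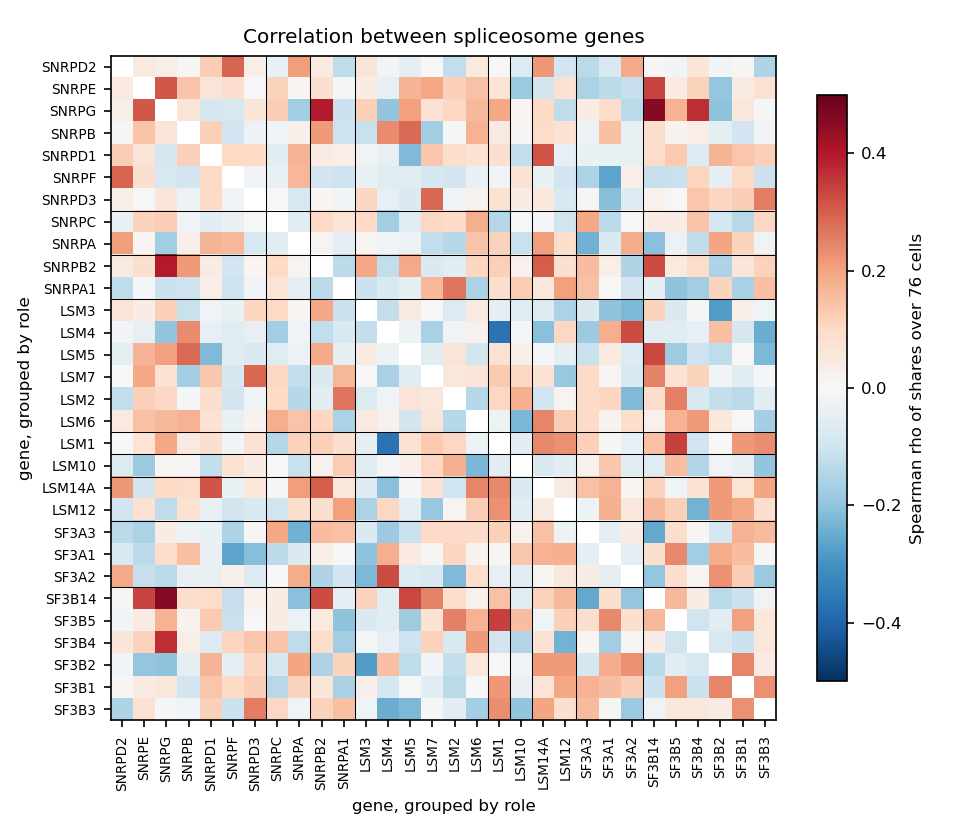
Spearman rho between the shares of 30 members over 76 cells, grouped by role (black lines, with the diagonal blank). They include LSM genes outside the spliceosome. Colours run from -0.5 to 0.5; most cells of the grid are pale, and the strongest are SF3B14 with SNRPG (0.456) and LSM1 with LSM4 (-0.369).

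Cell cycle genes gave a similar picture. The S phase list (35 genes) took 0.494% ± 0.160 of UMIs and the analysed G2 and M phase genes (37) 0.366% ± 0.176. Of the 30 members tested, which include LSM genes outside the spliceosome, 19 had a rho above 0 with the S phase share, where 61.5% of other genes did. The median was 0.0447 against 0.0455. With totals free of ribosomal protein and mitochondrial genes the median was -0.00334 against 0.0162. For the G2 and M phase share 19 genes had a rho above 0, where 57.6% of other genes did, and the median was 0.0352 against 0.0291. The highest with the S phase share were SNRPB (0.360) and SNRPB2 (0.323), and both were positive on each scale tried (lowest 0.223 and 0.224, with cells thinned to 10940 UMIs). In those thinned cells LSM4 stood above both (0.232). Being positive on each scale was not particular to these genes, since LSM4, LSM6 and SNRPA1, among others, were too. The highest with the G2 and M phase share was LSM1 (0.252), and the lowest was SNRPE (-0.226). The value for SNRPE was -0.179 with totals free of ribosomal protein and mitochondrial genes, and -0.137 without the cells under 10483 UMIs. With cells thinned to 10940 UMIs it was only -0.0248. In thinned cells SNRPA1 was the lowest (-0.195), and LSM1 was not tested. With spike-in totals as the scale SNRPE stood at 0.370, where the median of the 30 genes was 0.366 and that of other genes 0.301, so the sign turned in a shift that other genes shared. These are weak correlations of sparse counts.

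Among genes outside the set, those whose shares ran most like the summed share of the 32 genes over the 76 cells were H2AFZ (rho = 0.543), PNO1 (0.523), PRDX1 (0.435), SLBP (0.422) and ZNRD1 (0.422). Those that ran most against it were EEF2 (-0.475), RNF40 (-0.398) and PDIA4 (-0.397). The median over 2780 genes was -0.00468.

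The rest of the splicing machinery was mostly rarer per gene. Other U1 and U2 factors (16 genes) took 0.220% ± 0.0715 of UMIs, led by LUC7L3 (13.5 ± 9.01 UMIs), U2SURP (7.28 ± 5.87) and SF1 (4.86 ± 3.96), and 2 of the 11 with a mean of at least 1 UMI lay above the highest spike-in dispersion. For this and the lists that follow the background is the 21.6% of all genes tested. Genes of the U4/U6.U5 tri-snRNP (17) took 0.185% ± 0.0522. They were led by NHP2L1 (15.9 UMIs), TXNL4A (4.61) and SNRNP27 (3.37), and 1 of 11 lay above it. Catalytic and Prp19 factors (22 genes, led by BUD31, CWC15 and CDC5L) took 0.128% ± 0.0360, with 1 of 9 above it. Genes of the minor spliceosome (10, led by ZCRB1, SNRNP25 and SNRNP35) took 0.0446% ± 0.0205, with 0 of 2. Genes listed as building snRNPs (21, led by CLNS1A, which delivers Sm proteins, STRAP and NCBP2) took 0.140% ± 0.0321, with 1 of 11. The analysed hnRNP and SR regulators (30 genes, led by HNRNPA1, SRSF7 and SRSF3) took 0.800% ± 0.164, with 9 of 28. The Sm ring share had a rho of 0.218 with the tri-snRNP share and of 0.114 with the share of the genes that build snRNPs. The median rho with the S phase share was 0.212 for hnRNP and SR regulators and 0.192 for other U1 and U2 factors. It was 0.138 for genes that build snRNPs, 0.139 for the minor spliceosome, 0.0396 for the tri-snRNP and 0.00615 for catalytic and Prp19 factors. Single genes of these lists stood above SNRPB (0.360), such as LUC7L3 (0.447) and U2SURP (0.405) of the other U1 and U2 factors. COPRS, listed with the genes that build snRNPs, had 0.475. Whether each gene of that list acts in building snRNPs was not tested.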

How the data were processed

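The deposited values are raw UMI counts per gene and cell, in 1 table with 1 column per cell. Per the submitters' processing notes, cutadapt 1.2.1, STAR 2.4.0a and the build hg19 (GRCh37) were used; for their role, the UMI counter, the annotation and tags that match several genes, the sources used here give nothing. A row named GENE that repeats the cell numbers (0.197% of the sum of all values) was left out, and 80 spike-in rows were kept apart. Columns were matched to cells by run name and number.

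Shares are percents of a cell's endogenous UMIs. Pearson dispersion took its expectation from cell totals, and was called high above the highest spike-in with a mean of at least 1 UMI. Correlations are Spearman's over cells, given without p. Dispersion and correlation steps were tested on simulated data. Coding lengths and pseudogenes come from GENCODE 29 and promoters from RefSeq by symbol, both on GRCh38. Python 3.11.15, numpy 2.4.6, pandas 2.3.3, scipy 1.17.1 and matplotlib 3.10.9 were used.

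The genes and lists were chosen with earlier results of these data known. All 32 genes are accounted for; other lists are named by their 3 most abundant genes, and the 5 most and 3 least alike genes by rho. Alternatives were other scales, filters and cells, thinning, detection at 2 UMIs and a correction for tag collisions (20736 tags).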

Additional observations from a re-analysis of the deposited data

Results flagged for a closer look

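Rows of pseudogenes, which the set leaves out by name, held more UMIs than the limit of 3 counts. For SNRPG these were SNRPGP2 (313 UMIs), SNRPGP10 (254) and SNRPGP15 (46). For SNRPE these were SNRPEP4 (73 UMIs in 41 cells) and SNRPEP2 (56 in 36 cells). LSM12P1 and LSM3P3 gave 4 UMIs each. All 11 such rows together gave 758 UMIs, equal to 4.21% of the UMIs of the 32 genes.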

How the results depend on the processing

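The share of the 32 genes was 1.65% with totals free of ribosomal protein and mitochondrial genes, and 1.06% to 1.11% under the other alternatives. With spike-in totals as the scale, 16 genes lay above the highest spike-in dispersion, and the medians of rho were 0.262 between members (0.177 for all genes), 0.396 with S phase (0.330 for other genes) and 0.366 with G2 and M phase (0.301 for other genes); the cause was not tested. Without the 5 cells under 10483 UMIs, the highest spike-in dispersion was 2.30, and 4 genes lay above it. With a minimum mean of 0.5 UMI it was 2.57, and 1 of the 30 genes lay above it, where 7.51% of 4649 genes did. Of the 20 genes averaging 3 UMIs or more, 10 lay above the highest spike-in of that range, a lower limit of 2.04. Of all 1096 genes of that range 49.9% did. With totals free of ribosomal protein and mitochondrial genes the median rho with the S phase share was -0.00334 and the rho of the share with the ribosomal protein share was 0.140; the cause was not tested. The rho of the share with endogenous UMIs was 0.0901 without those 5 cells, 0.132 with thinned cells, and 0.922 for levels per spike-in UMI, which compares amounts and not shares. SNRPG ranked 1 with pseudogene rows added. Small medians of rho also varied in size. That with G2 and M phase was 0.00496 in thinned cells (-0.0148 for other genes) and 0.0104 without those 5 cells (0.0128 for other genes). That with S phase was 0.0788 in thinned cells, where other genes had 0.0142, a wider gap than with all cells at full depth. Its cause was not tested. Seen in at least 38 cells were 23 of the 32 genes at 2 UMIs and, over the same share of cells, 26 in thinned cells. The share of all gene rows was not computed under these settings, so neither count can be set against a background. No paired analysis was possible because there is 1 group. Depth limits the genes under about 2 UMIs per cell most.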
